A study of Mus musculus with 12 samples.

Results

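The comparison described here is the change in gene expression of wild-type (WT) mouse embryonic stem cells between 3 and 6 h of Activin A. It takes 4 of the 12 RNA sequencing libraries of the series, the 3 h and the 6 h library of WT line 18 and of WT line 26, with the libraries of the same line paired. The series also holds 2 lines without Arkadia, an E3 ubiquitin ligase encoded by Rnf111 (lines 25 and 39, genotype Ark -/-, called null below). Its title concerns the part of this ligase and of the corepressor SnoN in the SMAD2/3 response to dose. All lines are of the 129SvEv strain. Cells kept in LIF plus the GSK3 and MEK inhibitors (2i) were placed on fibronectin in N2B27 medium for 24 h, and SB431542 (SB) was added at 10 µM for the next 4 h. This compound blocks the type I receptor kinases for Activin, Nodal and TGFβ. Of the dishes of a line, 1 was harvested in SB, while the others, after a wash, stayed for 3 or 6 h in N2B27 that held Activin A at 10 ng/ml. No dish given fresh medium without Activin was analysed here, so a change from 3 to 6 h also holds 3 more hours in culture. For the same reason a difference from SB, called an early rise or fall below, also holds the wash, the fresh medium and the time in it. Each value rests on 1 dish of each of 2 lines, and the labels do not say whether the lines were derived separately.

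Activin and Nodal bind the same type I and type II receptors, which phosphorylate SMAD2 and SMAD3. These join SMAD4 and enter the nucleus, where partners such as FOXH1 bring them to target genes. Many of the targets encode inhibitors of the pathway: the secreted Lefty proteins, the inhibitory SMAD7, the corepressors SnoN and Ski, and the membrane adaptor PMEPA1. In cells like those of the early epiblast the pathway maintains Nanog and, at higher levels, switches on genes of the primitive streak.

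Values are deposited FPKM, that is fragments per kilobase of transcript and per fixed number of fragments in the library. The summed FPKM of the 4 libraries was 710393 and 721405 at 3 h and 677258 and 671164 at 6 h in lines 18 and 26. Read totals are unknown, but the most common ratio of low values between libraries gave a rough estimate of depth. It put the same libraries at 1.56, 1.52, 1.49 and 1.33 times the depth of the shallowest library, null line 39 at 6 h. These ratios rested on 60 to 102 loci, of 422 to 523 with low values. Rnf111 stood at 3.85 and 3.76 FPKM at 3 h and 3.42 and 3.19 at 6 h in WT lines, and in null lines 25 and 39 at 0.832 and 0.650 at 3 h and 0.667 and 0.539 at 6 h. Pluripotent identity was checked with Pou5f1, which stood at 884 and 843 FPKM at 3 h and 915 and 870.0 FPKM at 6 h in lines 18 and 26. Other pluripotency genes were not all as steady. From 3 to 6 h Nanog, Sox2, Sall4 and Zfp42 changed by −0.69, −0.18, −0.17 and 0.11 on the log2 scale in WT lines. Of these only Nanog passed the threshold of 0.05 (limma adjusted p = 0.012, 0.074, 0.20 and 0.21). Markers of other cell types were summed: 8 neural markers of 14 were in the table and came to 32.0 to 32.4 FPKM at 3 h and 27.4 to 30.0 at 6 h. For 7 endoderm markers of 14 the sums were 14.6 to 15.8 at 3 h and 13.4 to 14.7 at 6 h, and for 9 fibroblast markers of 13 they were 17.1 to 18.4 and 17.2 to 18.5. Trophoblast markers (10 of 12) summed to 97.2 to 105.3 at 3 h and 96.7 to 109.4 at 6 h, with the keratins Krt8 and Krt18 at 10 FPKM or more. Germline and 2-cell markers (7 of 16) summed to 110.9 to 129.4 at 3 h and 81.3 to 99.6 at 6 h, with Sycp3 and Mael at 10 FPKM or more. The part of these sums in the changes below was not tested. Afp, Foxa2, Gata3, Col1a2 and Twist2 were below 1 FPKM in each of the 4 libraries. In bulk samples fewer cells of a type and less RNA per cell cannot be told apart.

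Of 12823 genes tested, 475 rose (3.7%) and 377 fell (2.94%) from 3 to 6 h, 6.64% in all (limma with cell line as a block, Benjamini-Hochberg adjusted p below 0.05). Every called gene had the same sign in both lines, which a call made from these 2 lines all but requires. Of all genes tested 71.6% had the same sign. Called falls were larger (median log2 change −0.50) than called rises (0.37). More than 2-fold changes were called for 38 genes that fell and 16 that rose. The median over all genes was 0.01. Counts of calls in the gene lists below stand against these shares of 3.7% and 2.94%. Against SB, changes were more numerous: 21.3% of genes rose and 15.9% fell by 3 h, and 21.6% rose and 12.3% fell by 6 h. Those comparisons share libraries with the one from 3 to 6 h, so their values are set side by side for single genes. Differences are in log2(FPKM + 1), a scale that shrinks the changes of low genes.

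The calls depended on the fit. Without the line as a block 325 genes were called (157 rose and 168 fell), and with either WT line left out 0 were (1781 genes at an unadjusted p under 0.05 without line 18, and 1514 without line 26). Without null line 25 or 39, which only add to the estimate of the spread, 319 and 313 genes were called, and among pathway genes named below T, Skil, Ski, Smurf1, Tdgf1, Otx2, Wnt3, Fgf5, Fgf15 and Id2 lost their calls (adjusted p from 0.051 to 0.099 over both fits). Signs and sizes below come from both WT lines. Where a named gene lost its call without the block, that p or the count of its list is given.

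To ask what became of early responders without reusing the WT 3 h libraries on both sides, genes were picked in the null lines and read in the WT lines. In null lines 15.5% of all genes rose and 14.1% fell by 3 h. Of the 1986 that rose there, 208 (10.47%) fell and 37 (1.86%) rose from 3 to 6 h in WT lines, with a median log2 change of −0.11. Among the 176 that had risen more than 2-fold, 74 (42.05%) fell and 6 rose, with a median of −0.40. Of the 1802 genes that had fallen by 3 h in null lines, 226 (12.54%) rose and 42 (2.33%) fell later in WT lines, with a median of 0.10. Early rises were thus followed by falls more often than the 2.94% over all genes, and early falls by rises more often than the 3.7%, each a count with no test. Both calls use the same estimate of the spread of a gene, so genes of low spread are called more easily in both. The shares over all genes are therefore not a like baseline, whereas the medians use no call in WT lines.

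**Figure D1:**
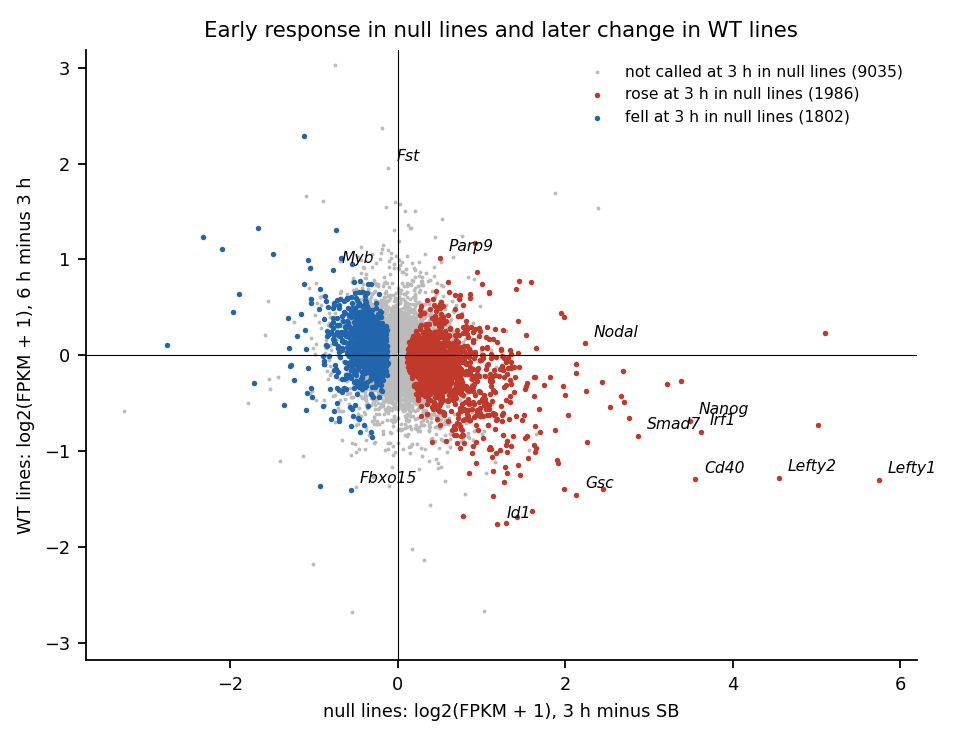
Early response of the null lines (horizontal axis, log2(FPKM + 1), 3 h minus SB) and later change of the WT lines (vertical axis, 6 h minus 3 h), with a point per gene tested and colours for genes that rose or fell at 3 h in null lines. The points of Lefty1, Nanog, Cd40 and Irf1 lie to the right and below 0, Fst lies at 1.96 on the vertical axis, and 146 of the 176 genes that had risen more than 2-fold lie below 0.

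Among the secreted inhibitors the direction was split. Lefty1 (chr1:180934986-180938453, mm10), a Nodal antagonist, stood at 0.0210 and 0.0516 FPKM in SB, at 93.8 and 111 at 3 h and at 40.9 and 40.8 at 6 h in lines 18 and 26. From 3 to 6 h it fell in both lines (log2 change −1.30, SE 0.124, limma adjusted p = 0.0067). The adjacent gene Lefty2 went from 47.8 and 49.3 to 17.3 and 21.8 FPKM (−1.28, SE 0.139, limma adjusted p = 0.0086). Both remained far above SB: 80.4% of the log2 rise of Lefty1 and 77.0% of that of Lefty2 was left at 6 h. The 2 genes are similar in sequence, so the split of reads between them is uncertain.

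Fst (chr13:114452245-114458944, mm10, minus strand) encodes follistatin, which binds and neutralises Activin. It stood at 11.05 and 10.3 FPKM in SB, 8.75 and 6.78 at 3 h and 33.1 and 32.4 at 6 h, the largest called rise that met the rule for named genes (1.96, SE 0.0928, limma adjusted p = 0.0025). Its level at 3 h was below that in SB in both lines (log2 difference −0.42, limma adjusted p = 0.014). Of 10 extracellular inhibitors tested, 1 rose (Fst) and 2 fell (the Lefty genes). The other 7 were not called, among them the gene of the BMP antagonist chordin, Chrd (0.08), and that of the BMP pseudoreceptor Bambi (−0.18).

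Several inhibitors inside the cell fell. Smad7, which blocks the type I receptor, stood at 0.198 and 0.235 FPKM in SB, 11.4 and 12.2 at 3 h and 5.77 and 6.49 at 6 h (−0.84, SE 0.0819, limma adjusted p = 0.0068). Skil, which encodes SnoN, went from 35.5 and 38.6 to 28.6 and 28.2 FPKM (log2 change −0.37, adjusted p = 0.021), and Ski from 5.74 and 6.72 to 3.73 and 4.44 (−0.51, adjusted p = 0.021). Ski thereby came within a log2 difference of 0.16 of SB (adjusted p = 0.15), whereas 77.6% of the log2 rise of Skil was left. Pmepa1 fell by 1.39 on the log2 scale, but its locus in the table covers only a fraction of 0.012 of the annotated gene. Tgif1, a SMAD corepressor, and Smurf1, a ubiquitin ligase for SMADs and receptors, also fell (−0.26 and −0.37), with adjusted p = 0.058 and 0.089 without the block. Of 13 genes of this list that were tested, 6 fell and 0 rose, with a median of −0.26.

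The counts of ligand, receptor and transducer genes called are read against 6.64% of all genes. The ligand gene Nodal, itself a target of the pathway, stood at 7.98 and 7.36 FPKM in SB, 57.5 and 56.6 at 3 h and 63.4 and 61.1 at 6 h. Its later change of 0.12 was not called (adjusted p = 0.45), with both lines a little higher at 6 h than at 3 h. No ligand gene of 10 was called, and none of 9 SMAD and partner genes (0 rose and 0 fell by limma; 4 ligand genes and 0 SMAD genes had an unadjusted p under 0.05). Smad2, Smad3 and Smad4 moved by 0.02, 0.07 and −0.03. Of 11 receptor genes 1 fell, the Nodal co-receptor Tdgf1 (Cripto), from 280.1 and 300.4 to 225 and 257 FPKM (−0.27, adjusted p = 0.026, and 0.44 without the block). Tdgf1 may share reads with a processed pseudogene.

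**Figure D2:**
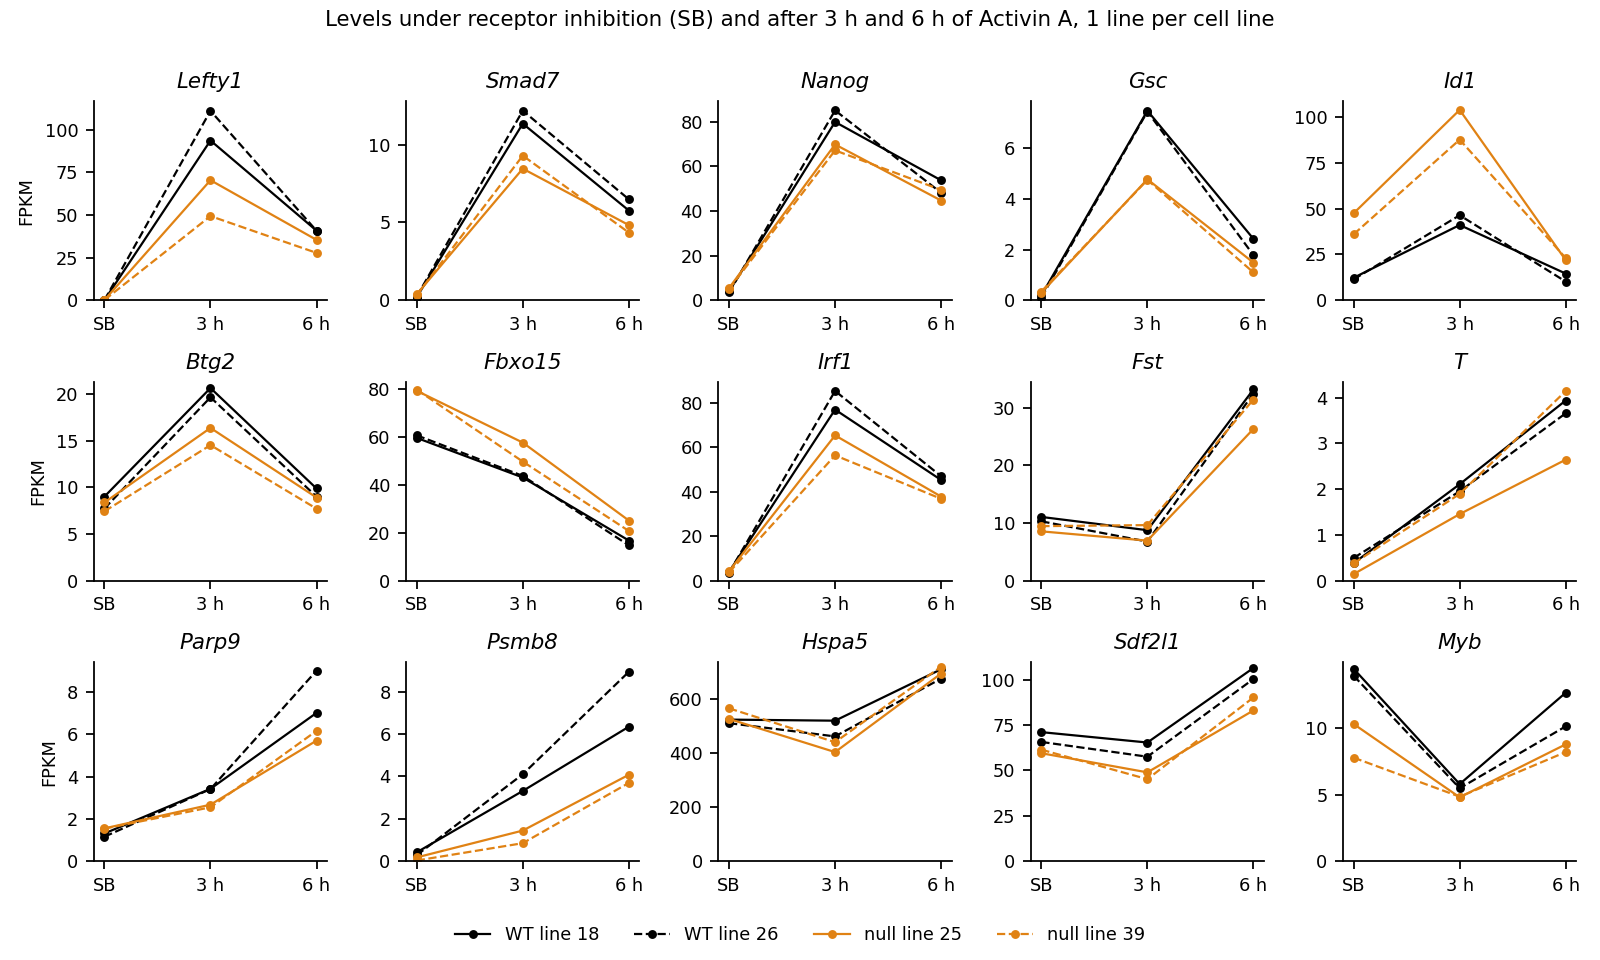
FPKM (vertical axes, from 0) of 15 genes in SB and after 3 and 6 h of Activin A (horizontal axes), with a line per cell line: WT 18 and 26 in black, null 25 and 39 in orange. Lefty1, Smad7, Nanog, Gsc and Irf1 peak at 3 h, Id1 and Btg2 return at 6 h to near their WT levels in SB, Fbxo15 falls throughout, and Fst, T, Parp9, Psmb8, Hspa5, Sdf2l1 and Myb end above their 3 h levels in both WT lines.

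Of 30 Activin/Nodal target genes listed, 25 were tested, of which 15 fell and 2 rose from 3 to 6 h (median −0.38). The same 25 had 20 rises and 1 fall by 3 h (21.3% of all genes rose). Without the block 12 fell and 1 rose. Nanog, a homeodomain factor of pluripotency (chr6:122707504-122714636, mm10), stood at 3.95 and 3.45 FPKM in SB, 80.0 and 85.1 at 3 h and 53.8 and 48.2 at 6 h (−0.69, SE 0.0833, limma adjusted p = 0.012). It kept 83.5% of its early log2 rise.

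Genes of the primitive streak parted. Gsc, a homeobox gene of the organizer, went from 0.185 and 0.101 FPKM in SB to 7.48 and 7.44 at 3 h and 2.42 and 1.78 at 6 h (−1.46, SE 0.114, limma adjusted p = 0.0046), so 49.6% of its log2 rise was left. T, which encodes Brachyury, went the other way, from 0.384 and 0.497 FPKM in SB to 2.11 and 1.95 at 3 h and 3.94 and 3.66 at 6 h (0.66, SE 0.105, limma adjusted p = 0.022, but 0.089 without the block). The growth factor genes Fgf8 and Wnt3 fell by 0.90 and 0.73, and the T-box gene Eomes changed by −0.31 without a call (adjusted p = 0.055). Of 11 mesendoderm genes tested, 4 fell, among them Gsc, Fgf8 and Wnt3, and 1 rose (T), with a median of −0.24. T was low, below 4 FPKM in each library of the comparison.

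A further set of early genes was back at or near the SB level by 6 h. Id1 (chr2:152736253-152737412, mm10), an inhibitor of basic helix-loop-helix factors, stood at 12.2 and 11.4 FPKM in SB, 41.0 and 46.4 at 3 h and 14.5 and 10.1 at 6 h (−1.76, SE 0.161, limma adjusted p = 0.0063). Its log2 difference between 6 h and SB was 0.04 (adjusted p = 0.87). Btg2, an antiproliferative gene, went from 9.02 and 7.75 FPKM in SB to 20.7 and 19.7 and then 9.89 and 9.02 (−1.02, SE 0.0502, limma adjusted p = 0.0025). Tle3, a Groucho-type corepressor, stood at 7.70 and 9.04 FPKM at 3 h and 3.39 and 3.57 at 6 h, with 6.63% of its log2 rise left. Bcl11a, a zinc finger repressor chosen after its values were seen, had 2.52% left (−0.92, adjusted p = 0.018).

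Of 15 BMP and ID target genes tested 3 fell: Id1, Id2 (−0.51) and the homeobox gene Msx1, which went from 17.8 and 17.8 to 5.97 and 6.41 FPKM (−1.39, SE 0.0994, limma adjusted p = 0.0044). The related Id3 did not follow Id1: it had fallen by 3 h, from 74.4 and 75.5 FPKM in SB to 43.5 and 48.0, and stood at 47.3 and 49.5 at 6 h (0.08, adjusted p = 0.37). Of 22 immediate early genes 2 fell, Btg2 and the AP-1 gene Junb (−0.56, adjusted p = 0.021, and 0.063 without the block). The Junb locus covers a fraction of 0.428 of the annotated gene. Of 21 p53 target genes 5 fell (Btg2, Sesn2, Ddit4, Trp53inp1 and Phlda3) and 0 rose, and Ddit4 had adjusted p = 0.15 without the block.

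Other genes named for the size of their fall had diverse courses. Coch, an extracellular matrix protein gene, and Chst15, a chondroitin sulfotransferase gene, had risen by 3 h (1.79 and 2.38) and fell by 1.25 and 1.12. Sox13, a Sox family gene, ended below SB (−0.46, adjusted p = 0.0068) after an early rise of 0.76. Tnni2, a troponin gene, Gm10603 and Ppp1r16b, a phosphatase regulatory subunit gene, had no called early change and fell by 1.38, 1.37 and 1.32. Gm10603 had adjusted p = 0.12 without the block. A further 33 genes that fell and 33 that rose were not named only because their loci cover less of the annotated gene than they leave out.

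Most pluripotency genes tested were not called, which held for most of all genes too (3.7% rose and 2.94% fell). Of 16 naive pluripotency genes tested 3 fell and 0 rose (median −0.21). Besides Nanog these were Dppa3 (−0.46, and adjusted p = 0.31 without the block) and Fbxo15, an F-box gene of undifferentiated cells. Fbxo15 declined at each step, from 59.7 and 60.7 FPKM in SB to 43.1 and 43.8 at 3 h and 16.8 and 14.8 at 6 h (−1.41, SE 0.0788, limma adjusted p = 0.0038). Dmrt1, Crabp2 and Upp1, chosen after their values were seen, shared the late fall without a called early change: they encode a DM-domain factor, a retinoic acid carrier and uridine phosphorylase, and fell by 0.99, 0.81 and 0.80. Zfp42 (Rex1) and Klf2 did not change by the test (0.11 and −0.26, adjusted p = 0.21 and 0.11).

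In the core list of 19 genes 3 fell (Sall1, Tdgf1 and Mybl2) and 0 rose, and 0 were called without the block. Pou5f1 and Sox2 moved by 0.05 and −0.18 (adjusted p = 0.55 and 0.074). Formative and primed epiblast genes went both ways, with 3 of 17 up and 3 down (median 0.01). The rises were Fgf5, a growth factor gene of the formative epiblast (25.2 and 24.0 to 30.7 and 33.6 FPKM, 0.37), and the zinc finger genes Zic2 (10.8 and 11.6 to 15.1 and 15.8, 0.43) and Zic5 (10.8 and 11.4 to 15.3 and 15.4, 0.44). Zic2 had dropped by 3 h (−0.62) and was near its SB level of 18.5 and 17.0 FPKM again (6 h minus SB −0.18, adjusted p = 0.092). The falls were Otx2 (−0.38), Sall2 (−0.41) and Fgf15 (−0.66, and adjusted p = 0.053 without the block).

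**Figure D3:**
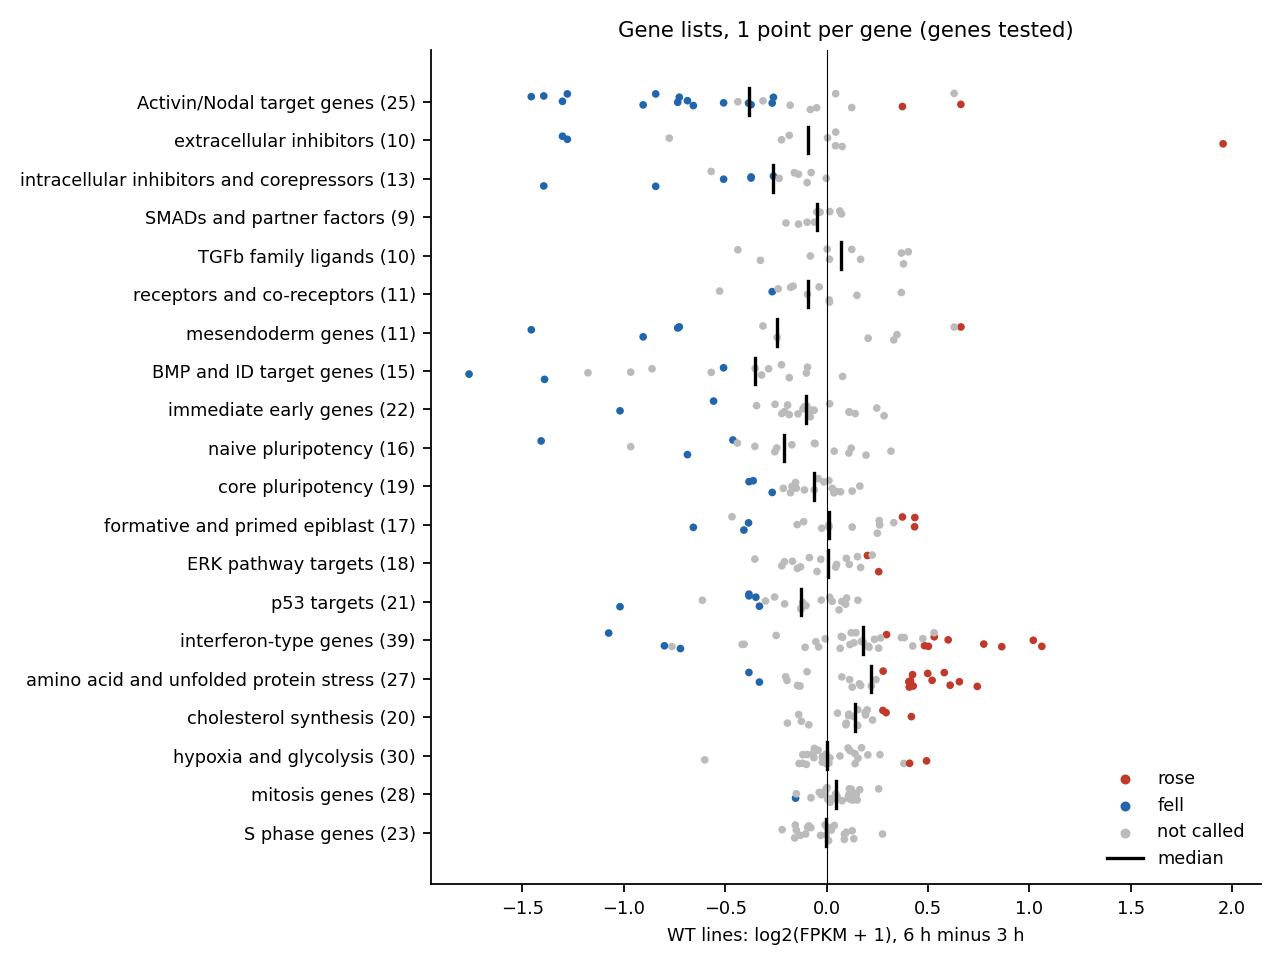
Log2 change of the WT lines from 3 to 6 h (horizontal axis) for the genes tested in 20 lists (vertical axis, number of genes in brackets), with a point per gene, red for called rises, blue for called falls, grey for others and a bar at the median. The bar of the Activin/Nodal target genes is at −0.38, that of the interferon-type genes at 0.18 and that of the stress genes at 0.22, while the bars of the mitosis and S phase genes lie near 0.

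Irf1 fell while 9 interferon-type genes rose. It encodes a transcription factor that activates genes of antigen processing. Irf1 stood at 3.99 and 3.61 FPKM in SB, 76.9 and 85.3 at 3 h and 45.3 and 46.9 at 6 h (−0.80, SE 0.0713, limma adjusted p = 0.0063). Cd40, a receptor gene of the TNF receptor family, went from 72.1 and 71.5 to 30.8 and 26.7 (−1.29, SE 0.0962, limma adjusted p = 0.0045). Of 39 interferon-type genes tested 9 rose and 3 fell, with a median of 0.18 (7 and 2 without the block). By 3 h 20 of the 39 had risen and 3 had fallen, against 21.3% and 15.9% of all genes. The falls were Irf1, the checkpoint ligand gene Cd274 (−1.07) and Socs1 (−0.72, and adjusted p = 0.063 without the block), an inhibitor of JAK kinases. Each of these 3 had risen by 3 h (4.10, 1.24 and 1.31).

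The 9 that rose differ in what they encode. Psmb8, an immunoproteasome subunit gene, climbed at each step, from 0.421 and 0.287 FPKM in SB to 3.31 and 4.10 at 3 h and 6.34 and 8.93 at 6 h (0.86, SE 0.149, limma adjusted p = 0.027, but 0.098 with a pseudocount of 0.1). Psme1 and Psme2, which encode the PA28 activator of the proteasome, rose by 0.48 and 0.60, and Psme2 went from 55.2 and 55.1 FPKM in SB to 150.0 and 138 and then 222 and 215. Parp9 and Parp12, of the PARP family, rose by 1.02 and 0.53, and Ifi35 by 1.06 (2.39 and 2.29 to 5.63 and 6.32 FPKM). The class I gene H2-K1 (0.50), the GTPase gene Gbp2 (0.78) and the tetherin gene Bst2 (0.30) completed the list. Psme1 and Bst2 had adjusted p = 0.058 and 0.11 without the block. H2-K1 and Gbp2 have close relatives that may share reads. Tap1 and B2m, of the same pathway, were not called (0.17 and 0.14).

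The interferon-stimulated response element (ISRE), at which IRF factors bind, was searched as its core GAAANNGAAA on both strands. The windows were RefSeq promoters of GRCm38.p6, 250 bases before to 50 from each start. It was found in 3.44% of all 32851 windows, in 2.79% of the 9100 tested genes with a window, and in 12 of 32 (37.5%) of the interferon-type genes. Of the risen members 3 of 8 held it, and so did Socs1, which fell. The stretches below show it upstream of the RefSeq start of 2 genes that rose and 1 that fell. The core is in capitals, read on the strand of the gene.
Bst2, chr8:71537573-71537622, minus strand: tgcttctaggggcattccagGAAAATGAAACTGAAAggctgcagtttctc
Gbp2, chr3:142620584-142620633, plus strand: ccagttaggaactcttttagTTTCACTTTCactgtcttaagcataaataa
Socs1, chr16:10785590-10785639, minus strand: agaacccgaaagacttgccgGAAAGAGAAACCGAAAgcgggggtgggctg
In Gbp2 the core lies on the opposite strand. In Bst2 and Socs1 the capitals hold 2 overlapping copies. Those of Socs1 lie inside the locus to which its FPKM belong (chr16:10783810-10785621). Over all 254 tested genes with the core, 9 rose (3.54%) and 7 fell (2.76%), against 3.95% and 2.96% of all tested genes with a window, shares that lie close together.

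Chaperones and folding enzymes of the endoplasmic reticulum (ER) were among the genes that rose late. The unfolded protein response raises them when secretory proteins accumulate. Of 27 amino acid and unfolded protein stress genes tested 12 rose and 2 fell (median 0.22). The same list had 2 rises and 13 falls by 3 h, when 15.9% of all genes fell. Without the block 9 rose and 1 fell. Hspa5 (chr2:34772054-34776941, mm10), which encodes the chaperone BiP, stood at 525 and 512 FPKM in SB, 521 and 463 at 3 h and 712 and 677 at 6 h (0.50, SE 0.0468, limma adjusted p = 0.0066). Sdf2l1, a BiP cofactor gene, went from 65.4 and 57.6 to 106 and 100.4 FPKM (0.74, SE 0.0588, limma adjusted p = 0.0047). The groups at 3 and 6 h did not overlap for either gene. The share of all genes for which this holds was not counted, so it adds no support.

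The rises took in chaperones, disulfide isomerases and cochaperones of the ER. Hsp90b1 (the ER HSP90, 0.52), Calr (calreticulin, 0.43) and Hyou1 (an HSP70-like chaperone, 0.58) rose, as did the disulfide isomerase genes Pdia4 (0.61), Pdia6 (0.41) and Creld2 (0.65). The J-domain genes Dnajb9, Dnajb11 and Dnajc3 rose by 0.28, 0.41 and 0.42, and Herpud1, of ER-associated degradation, by 0.41. Dnajb9, Dnajb11 and Dnajc3 had adjusted p = 0.13, 0.060 and 0.058 without the block. Hyou1 had dipped from 51.9 and 48.1 FPKM in SB to 40.7 and 36.8 at 3 h and stood at 59.1 and 57.7 at 6 h. Of the amino acid branch, Atf4, Ddit3, Trib3 and Chac1 were not called: they changed by 0.13, 0.16, −0.20 and 0.24 (adjusted p = 0.08, 0.5, 0.32 and 0.11). The Ddit3 locus covers a fraction of 0.128 of the annotated gene. Its WT mean was low, 0.631 FPKM at 3 h and 0.837 at 6 h. In null lines Atf4 rose by 0.23 (limma adjusted p = 0.013). Ddit3, Trib3 and Chac1 changed there by −0.09, −0.13 and 0.05 without a call. In WT lines Sesn2 and Ddit4 fell (−0.38 and −0.33). Xbp1, a transcription factor of the response, changed by 0.22 (adjusted p = 0.14).

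Many promoters of ER chaperones carry the ER stress element (ERSE), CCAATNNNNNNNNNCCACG, to which ATF6 binds together with the factor NF-Y. This motif was searched after the rises had been seen. On both strands it was found in 39 of 32851 RefSeq windows (0.119%) and in 15 of 9100 tested genes with a window (0.165%). It was present in 6 of the 11 risen stress genes that have a window. Their stretches follow, with the element in capitals and 20 bases on each side, read on the strand of the gene (GRCm38.p6).
Hspa5, chr2:34772005-34772063, plus strand: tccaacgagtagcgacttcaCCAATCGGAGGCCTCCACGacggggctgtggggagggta
Hsp90b1, chr10:86705618-86705676, minus strand: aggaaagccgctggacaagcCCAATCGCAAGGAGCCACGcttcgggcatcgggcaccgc
Calr, chr8:84847055-84847113, minus strand: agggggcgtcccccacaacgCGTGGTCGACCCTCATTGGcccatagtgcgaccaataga
Pdia6, chr12:17266471-17266529, plus strand: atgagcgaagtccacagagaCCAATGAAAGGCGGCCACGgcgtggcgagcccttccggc
Dnajc3, chr14:118937807-118937865, plus strand: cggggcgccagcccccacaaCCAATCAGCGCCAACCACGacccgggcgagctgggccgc
Creld2, chr15:88819500-88819558, plus strand: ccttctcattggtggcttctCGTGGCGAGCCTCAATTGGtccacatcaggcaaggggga
In Calr and Creld2 the element lies on the opposite strand, and Hsp90b1 holds a further copy in its window.

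Of the 15 tested genes with the element 7 rose and 0 fell, with a median log2 change of 0.40. Of these 7, 6 are the risen stress genes that had been seen before the search, so the count gives no independent support. Over all tested genes with a window, 3.95% rose and 2.96% fell. The gene outside the list was Alg12, a mannosyltransferase gene (0.34, adjusted p = 0.037, and 0.12 without the block), whose window holds the same copy of the element as that of its neighbour Creld2, so these 2 are not independent matches. Of the rest, Syvn1, an ER ubiquitin ligase gene, Derl3 and Canx changed by 0.40, 0.13 and 0.14 without a call (adjusted p = 0.060, 0.68 and 0.19), and the lowest value was that of Hnrnpa3 (−0.04). A match describes these letters in this window and no binding was measured.

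**Figure D4:**
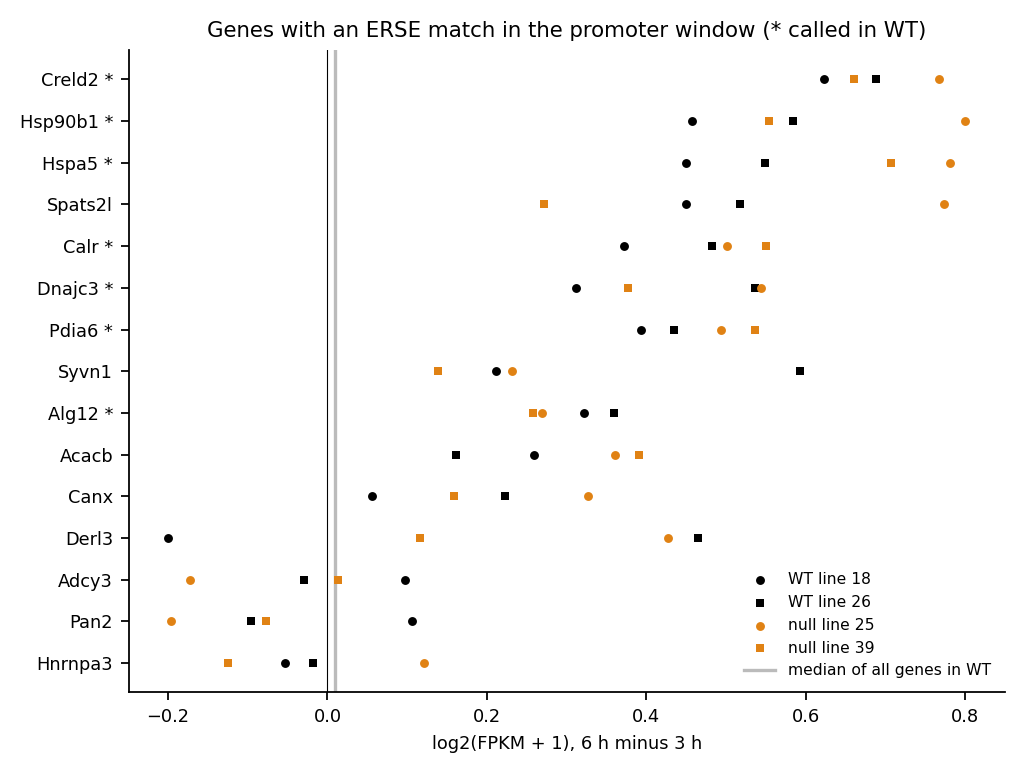
Log2 change from 3 to 6 h (horizontal axis) of the 15 tested genes whose promoter window holds the ERSE letters (vertical axis, ordered by the WT change, * for genes called in WT lines), with a point per cell line and a grey line at the median of all genes in WT lines. The 6 called chaperone and folding genes and Alg12 lie above 0.3 in both WT lines, and Hnrnpa3, Pan2 and Adcy3 lie near 0.

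Binding elements of the SMAD pathway were counted in the same windows, on both strands. The SMAD box CAGAC was in 42.8% of windows of genes that fell, 44.0% of those that rose and 47.7% of all tested. The FOXH1 motif TGTNNATT was in 7.43%, 5.29% and 6.75%, the GC-rich element GGCGCC in 21.6%, 18.7% and 22.5%, and the AP-1 motif TGANTCA in 2.97%, 5.57% and 4.52%. Of 14 Activin/Nodal target genes with a window, 6 (42.9%) held the SMAD box and 3 (21.4%) the FOXH1 motif. The GC-rich element was in 3 of the 14 and the AP-1 motif in 0. Among the 7 of these targets that fell, the SMAD box was in 4, the FOXH1 motif in 3, the GC-rich element in 1 and the AP-1 motif in 0. These counts are small and were not tested. The windows hold only the promoter, so distal elements were not searched.

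Some late rises were recoveries. Myb, a transcription factor gene, stood at 14.4 and 13.9 FPKM in SB, 5.78 and 5.47 at 3 h and 12.6 and 10.1 at 6 h (0.89, SE 0.104, limma adjusted p = 0.011). Tnfrsf19 and Tnfsf11, of the TNF receptor and ligand families, had likewise fallen by 3 h (−0.74 and −1.21) and rose by 0.95 and 0.75. Snx16 and Rab38, of endosomal sorting and vesicle traffic, ended above SB after an early dip (6 h minus SB 0.36 and 0.34). Rab38 had adjusted p = 0.081 without the block.

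Others had no called early change. Igfbp3, which encodes a carrier of insulin-like growth factors, stood at 8.29 and 7.19 FPKM in SB, 9.60 and 8.49 at 3 h and 17.4 and 15.9 at 6 h (0.81, SE 0.0850, limma adjusted p = 0.0077, but 0.068 without the block). Crb3, a polarity gene, and Nudt7, a peroxisomal Nudix gene, rose by 0.82 and 0.76 from levels at 3 h that differed from SB by −0.06 and 0.02 on the log2 scale. Fam19a4, a secreted peptide gene, and Gm16233 rose at both steps (0.46 then 1.03, and 1.56 then 0.77). Gm16233 had adjusted p = 0.099 without the block. Nudt13 rose by 1.15 with uneven lines, 1.63 in line 18 and 0.67 in line 26 (adjusted p = 0.047, and 0.17 without the block).

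Calls in the metabolic and signalling lists stand against 6.64% of all genes. Of 20 cholesterol synthesis genes 3 rose, among them Pmvk and Mvd (0.29 and 0.28), and 0 were called without the block. Of 30 hypoxia and glycolysis genes 2 rose: Pdk1, which restrains pyruvate entry into mitochondria, from 17.7 and 19.8 to 26.7 and 26.9 FPKM, and the collagen hydroxylase gene P4ha1 (0.41). Both are among the 14 genes of that list that had fallen by 3 h, when 15.9% of all genes fell. The feedback genes Dusp4 and Spred1 of the ERK pathway rose by 0.20 and 0.26, and 0 of 18 genes were called without the block. In the cell cycle lists 0 of 23 S phase genes were called (9 at an unadjusted p under 0.05), and 1 of 28 mitosis genes, Ccnb2 (−0.15, and adjusted p = 0.38 without the block).

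Of the remaining lists, extracellular matrix and actin genes had 3 rises and 4 falls among 30, with the laminin gene Lama5 (−0.64), the integrin gene Itga5 (−0.50, and adjusted p = 0.13 without the block) and the myosin light chain gene Myl9 (−0.44) falling, besides the collagen gene Col8a2 (−1.69) at a locus covering a fraction of 0.014 of the gene. Anxa1 and Anxa3, which encode annexins, rose by 0.40 and 0.35, and the vimentin gene Vim by 0.27 (adjusted p = 0.49 without the block). Over all genes 3.7% rose and 2.94% fell. In the Notch pathway 1 of 12 fell, the feedback gene Nrarp (−0.94), and 2 of 12 heat shock genes fell, Hspb1 and Dnajb1 (adjusted p = 0.20 and 0.17 without the block). WNT targets had 1 rise (T) and 2 falls among 12, with Tcf7l1 at −0.45. Markers of other cell types had 0 rises among 39 entries in 5 lists, too few entries to tell from the 3.7% of all genes. Neural markers had 2 falls (Pax6 and Hesx1, adjusted p = 0.28 each without the block), endoderm markers 1 (Gata4) and germline markers 3 (Prdm1, Dppa3 and Sycp3). The loci of Hesx1, Gata4 and Prdm1 cover fractions of 0.213, 0.006 and 0.043 of the annotated genes. Sycp3, a gene of meiotic chromosomes, changed by −0.41 (adjusted p = 0.025, and 0.75 without the block).

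The null lines, whose libraries add to the comparison only the estimate of the spread, were read over the same interval. There 8.89% of all genes rose and 4.55% fell from 3 to 6 h. Of the 475 genes that rose in WT lines, 355 (74.74%) rose and 0 fell in null lines, and 467 had a change above 0. Of the 377 that fell in WT lines, 231 (61.27%) fell and 2 rose, and 352 had a change below 0. The calls of both genotypes share the estimate of the spread, which favours genes called in both. The counts above and below 0 use no call in null lines. Fst changed by 1.69, Id1 by −2.04, Gsc by −1.34, Smad7 by −0.82, Hspa5 by 0.74 and Parp9 by 0.94 in null lines (adjusted p = 0.0031, 0.0042, 0.0042, 0.0057, 0.0031 and 0.0079). The null calls fell to 594 without the block, and to 0 with any line left out or in a fit of the null libraries alone, where 2904 to 3372 genes had an unadjusted p under 0.05.

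**Figure D5:**
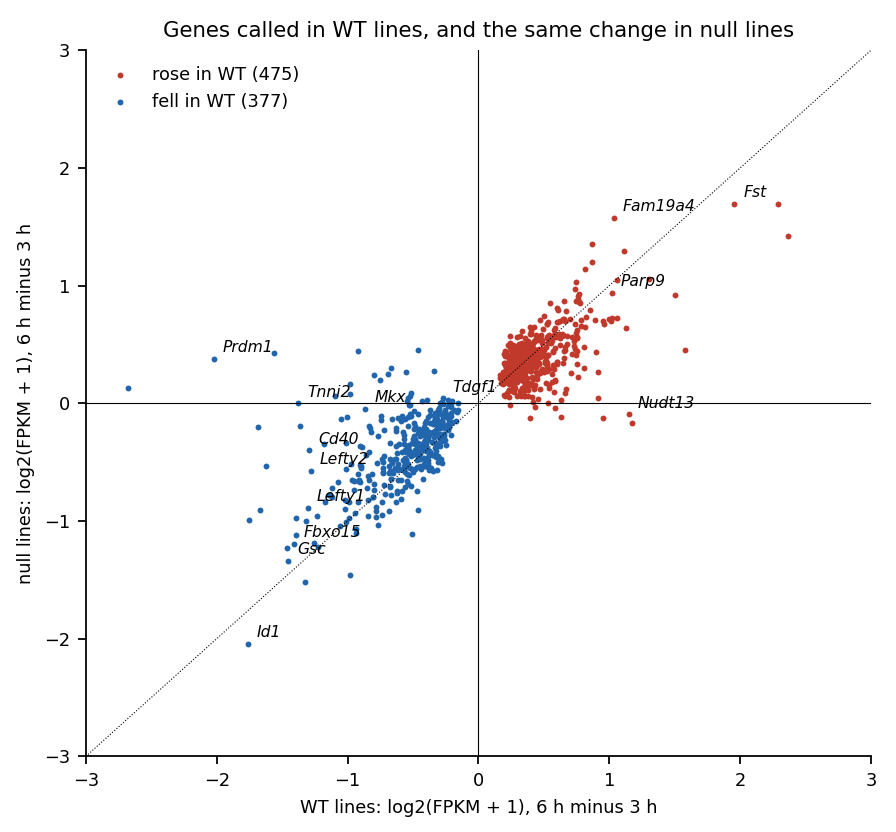
Change from 3 to 6 h in WT lines (horizontal axis, log2(FPKM + 1)) and in null lines (vertical axis) for the 852 genes called in WT lines, red for rises and blue for falls, with a dotted line at equal change. Of the risers 467 of 475 lie above 0 on the vertical axis, and of the fallers 352 of 377 lie below 0.

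The difference in this change between the genotypes was tested as an interaction, and 0.0% of genes were called (0 of 12823 by limma, 1176 at an unadjusted p under 0.05, and 0 under every alternative run). No change from 3 to 6 h is therefore shown to be particular to WT lines. Among named genes with a low unadjusted p, Cd40 changed by −1.29 in WT and −0.40 in null lines (difference 0.89, unadjusted p = 0.00042, adjusted p = 0.51). Sox2 changed by −0.18 and −0.74 (unadjusted p = 9.3e-05, adjusted p = 0.3), from 26.1 and 25.4 to 22.9 and 22.4 FPKM in WT lines and from 35.0 and 32.0 to 20.5 and 18.9 in null lines. These were picked from the results and are given as values.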

How the data were processed

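RNA was poly(A)-selected, fragmented and sequenced as 50 bp single reads, per the labels' protocols. The authors deposited 1 table of FPKM per locus and library with a status per value. Coordinates are in mm10 (per the submitters' processing notes), and for the aligner and quantifier nothing is given in the sources used here. Of 17446 loci, 14780 carry a gene name. Loci with a status other than OK (27) were left out and 1 locus was kept per symbol, that with the highest mean FPKM, which gave 13508 genes. Genes with at least 1 FPKM in at least 2 libraries (12823) were tested on log2(FPKM + 1), a pseudocount of 1, with limma 3.58.1 in R 4.3.3. The fit held 6 groups and cell line as a block over all 12 libraries, with a variance trend and Benjamini-Hochberg adjustment at 0.05. It was tested on simulated data. The pairing comes from the labels, which give the cell line. Correlations of the lines' deviations between time points were 0.02 to 0.05 in WT and 0.25 to 0.35 in null lines, so the WT values show little sign of the pairing. With the block the WT calls from 3 to 6 h went from 325 to 852, and the part of the null lines in this was not tested. Each group has 1 dish per line, so p-values measure only the spread between these samples. FPKM carry no counts, so no counting interval is given. Loci were set against GENCODE M21, in which 12870 genes (95.28%) were found.

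Genes were named by rule: the 15 largest called rises and falls with a mean of at least 5 FPKM in the higher group, a single symbol and a locus covering most of the annotated gene, the called members of the pathway lists, up to 4 called members of each other list, and fixed key genes. Some genes that met the rule are not reported here. Other genes named were chosen after their values were seen, among them Id3, Klf2, Zfp42, most interferon-type and chaperone genes below the leading 4 of their list, and the genes of the promoter search. The comparison, lists and members were chosen with earlier results of these data known. Promoter windows came from RefSeq (GRCm38.p6). Alternatives changed the pseudocount, filter, scaling, block, trend and libraries.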

Additional observations from a re-analysis of the deposited data

Results flagged for a closer look

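Tdgf1, the Nodal co-receptor gene, changed by −0.31 and −0.22 from 3 to 6 h in WT lines 18 and 26 and by 0.02 and 0.06 in null lines 25 and 39, values below 0 in both WT lines and above 0 in both null lines. The null change of 0.04 was not called (adjusted p = 0.58). The difference, null minus WT, was 0.31 (limma interaction, unadjusted p = 0.0025, adjusted p = 0.51), which did not pass the threshold. Prdm1, a repressor gene of germ cell specification, went from 5.89 and 10.9 to 0.777 and 1.80 FPKM in WT lines, changes of −1.95 and −2.09, and the null values were 0.04 and 0.71 (null change 0.38, not called, adjusted p = 0.49). Its difference was 2.40 (unadjusted p = 0.0018, adjusted p = 0.51). The Prdm1 locus in the table covers a fraction of 0.043 of the annotated gene, so its FPKM describe that stretch.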

How the results depend on the processing

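No called gene named in the text changed direction under any alternative run. Many of these runs could not have shown a reversal. Changes to the block, the trend or the null libraries leave the WT log2 changes as they are. Leaving out a WT line leaves the other, which has the same sign for called genes. Without the replicate block, 325 genes were called from 3 to 6 h in WT lines (322 of them among the main 852), 2882 at 3 h and 2039 at 6 h against SB, 594 from 3 to 6 h and 1749 at 3 h against SB in null lines. The genes that rose at 3 h in null lines and fell later in WT lines then numbered 107, and those that fell and rose later 64. With the 6 libraries of a genotype alone the counts were 316 in WT lines, and 0 (from 3 to 6 h) and 1974 (3 h against SB) in null lines. With the 4 libraries compared alone they were 1 in WT lines and 0 in null lines. Leaving out 1 line gave 0 to 319 genes from 3 to 6 h, 347 to 4456 at 3 h and 311 to 4038 at 6 h against SB in WT lines, 0 to 0 and 449 to 2199 in null lines, and 0 to 101 and 0 to 53 for the early responders. Without WT line 18 or 26 no named gene was called. Other pseudocounts, filters, scalings and no variance trend gave 749 to 890 genes from 3 to 6 h in WT lines. The genotype difference had 0 calls throughout, with 486 to 1492 genes at an unadjusted p under 0.05. With 2 lines and unknown read depth, small changes of low genes are not resolved.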

Other observations

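The metallothionein genes Mt1 and Mt2, which encode metal-binding proteins, declined at each step. Mt2 stood at 298 and 282 FPKM in SB, 201 and 217 at 3 h and 110.2 and 129 at 6 h in WT lines 18 and 26 (6 h minus 3 h −0.80, SE 0.0795, limma adjusted p = 0.007), and Mt1 changed by −0.67 (adjusted p = 0.006). In null lines the later changes were −0.80 and −0.64 (adjusted p = 0.0057 and 0.0048). Car4, a membrane carbonic anhydrase gene, rose at each step, from 42.5 and 43.5 to 72.9 and 70.4 and 111 and 117 FPKM (0.67, adjusted p = 0.0045), and Tcf15, a helix-loop-helix factor gene of primed cells, went from 10.5 and 9.23 to 50.5 and 44.7 and back to 23.0 and 23.2 (−1.01, adjusted p = 0.0044). These genes were chosen after their values were seen.

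The 2 mitochondrial loci in the table summed to 360.2 and 395.8 FPKM at 3 h and 262.5 and 273.8 at 6 h in lines 18 and 26. Ribosomal protein genes took 18.6% and 18.1% of the summed FPKM at 3 h and 17.9% and 17.4% at 6 h.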
